A study of Mus musculus with 12 samples.

Results

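The transcripts described here are those of the mouse mitochondrial genome, a small circular chromosome that every mitochondrion carries in many copies. They were taken as all rows of the count table whose Ensembl identifier lies on the mitochondrial chromosome in the GRCm38 annotation, with symbols that start with mt-. This gave 37 genes of the 55487 in the table, namely 13 mRNAs, 2 rRNAs and 22 tRNAs. Of these, 23 had enough counts to be tested among 16908 genes in all (2 rRNAs, 8 mRNAs and 13 tRNAs), and 14 did not. This rule itself used no measured value.

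The libraries were made from microglia of YARG mice, a reporter strain in which YFP marks expression of Arg1, at postnatal day 13. Cells were sorted from the basal forebrain and striatum (BF/striatum in the labels) as CX3CR1+ CD206- microglia and split by YFP into ARG1+ and ARG1- populations, with tissue of several brains of 1 sex pooled for each library. Both populations were thus gated from the same pools, but the labels do not say which ARG1+ library shares a pool with which ARG1- library, and all tests treat the libraries as separate samples. There were 12 libraries in 4 groups of 3: ARG1- female, ARG1- male, ARG1+ female and ARG1+ male. They are named here by the number in their labels (1, 2 and 13 for ARG1- female; 5, 6 and 14 for ARG1- male; 7, 8 and 15 for ARG1+ female; 11, 12 and 16 for ARG1+ male). YFP stands in for ARG1, and all groups carry the reporter. Total counts lay between 28356659 and 60625170, so that 3 counts in a library equalled at most 0.106 CPM (counts scaled by library size). Arg1 itself was at 0 counts in all 6 ARG1- libraries. In ARG1+ libraries its median was 0 CPM and its maximum 1.48 CPM, so its counts did not separate the populations. The study likewise reported no Arg1 transcripts in its RNA-seq, but found Arg1 expression restricted to the YFP+ population by RT-qPCR. Mrc1, the gene of the CD206 protein used to remove macrophages, was read at 100.4 to 138.3 CPM in ARG1- and at 102.2 to 231.5 CPM in ARG1+ libraries, and the 8 microglia markers summed to between 48715 and 80110 CPM in every library.

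Mitochondrial DNA is transcribed by its own polymerase, POLRMT, with the factors TFAM and TFB2M, as long transcripts of each strand that run through many genes. The tRNAs that lie between the mRNAs and rRNAs are cut out, which releases the other RNAs, and most of these receive a short poly(A) tail. The mRNAs encode core subunits of respiratory complexes I, III, IV and V, the rRNAs form the ribosome that translates them, and all other proteins of mitochondria come from nuclear genes. The level of these RNAs depends on the number of mitochondrial genomes in a cell, on their transcription and on the stability of the RNAs.

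Pieces of mitochondrial DNA have also been copied into the nuclear genome in the course of evolution, and some of these copies are annotated as genes. A search of the annotated transcripts found 17 nuclear genes that match a mitochondrial gene over at least 100 bases with at least 90% identity. On chromosome 1, 7 of them lie in a row on the minus strand, between positions 24611535 and 24616197, in the order of the mitochondrial genes from the end of mt-Co1 to the first part of mt-Nd4 (positions 6390 to 11042 of the mitochondrial chromosome). Whether a read from this stretch can be given to 1 place in the genome depends on single bases. The start of mt-Co2, which encodes a copper-binding subunit of complex IV, is shown beside its copies as transcribed, 1 read length (75 bases) each. Capitals in a copy mark bases that differ from mt-Co2, which are C25T and G57A for Gm13341, counted from the first base of the gene.
mt-Co2, chrM:7013-7087, plus strand: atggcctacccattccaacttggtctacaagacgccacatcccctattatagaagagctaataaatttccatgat
Gm28661, chr1:24615491-24615565, minus strand: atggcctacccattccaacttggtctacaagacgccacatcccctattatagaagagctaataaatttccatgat
Gm13341, chr2:22587888-22587962, minus strand: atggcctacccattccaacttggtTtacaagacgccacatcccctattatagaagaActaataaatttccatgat

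The first copy has no difference in this window, and none over the 681 bases that align with mt-Co2. mt-Nd3, a complex I subunit, differs from its copy Gm28438 at 1 of 345 aligned bases, T3C, so that within the aligned bases only reads over the start of the gene can tell them apart. The windows that hold this base are shown with it in capitals. Sequences are those of the GENCODE M21 transcripts on GRCm38.
mt-Nd3, chrM:9459-9533, plus strand: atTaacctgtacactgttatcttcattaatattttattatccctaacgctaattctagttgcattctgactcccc
Gm28438, chr1:24613045-24613119, minus strand: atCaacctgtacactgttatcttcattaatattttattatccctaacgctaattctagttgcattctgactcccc

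Counts were missing where these copies lie. mt-Co2, mt-Atp8 and mt-Atp6 (the last 2 encode the complex V subunits) and the tRNAs mt-Ts1, mt-Td and mt-Tk, which are neighbours on the chromosome, were at 0 counts in all 12 libraries. mt-Co3, the third mitochondrial subunit of complex IV, had 0 to 2 counts in a library and 7 in all, and mt-Nd4l had 0 to 2 and 5 in all. By contrast mt-Co1, just upstream, had 12283 to 68017 counts. The 11 mitochondrial genes that lie wholly within the stretch matched on chromosome 1 held 1291 of the 1754860 mitochondrial counts of the 12 libraries, of which mt-Nd3 held 1113.

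Of the positions at which a 75-base read touches mt-Co2 and no other mitochondrial gene, 7 of 614 gave a sequence not found in the annotated nuclear copies, beyond which the nuclear genome was not searched. The same held for 2 of 563 in mt-Atp6, 1 of 709 in mt-Co3, 1 of 217 in mt-Nd4l and 7 of 275 in mt-Nd3, of which 3 cover the base that differs and 4 reach past the end of the annotated copy. In mt-Co1 it held for 886 of 1469 and in mt-Nd4 for 503 of 1298, whereas in mt-Nd1, mt-Nd6 and mt-Cytb no position matched a copy. For mt-Atp8, which lies between the copied genes, all 88 positions were without an annotated copy. On chromosome 1, the stretch between the copies of its neighbours mt-Atp6 and mt-Co2 (24614651 to 24614885) was not read. Whether it holds a copy of mt-Atp8 was therefore not tested. The copies themselves were barely counted: the 7 on chromosome 1 held 73 counts over all libraries, and the most counted of the 17 was Gm13340, a copy of mt-Co1 on chromosome 2, with 217 counts and a mean of 0.471 CPM, followed by Gm13341 (0.117 CPM) and Gm29216 (0.0789 CPM). How the counting treated reads that match several places is not given in the sources used here, and its part in the missing counts was not tested. No level is therefore given here for the mRNAs at or near 0, complex V included. The level of mt-Nd3 is not set against those of other genes. Those of mt-Co1 and mt-Nd4 are set against others per read position free of copies. Values per base of gene length are given only to show how far their order depends on this.

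**Figure D1:**
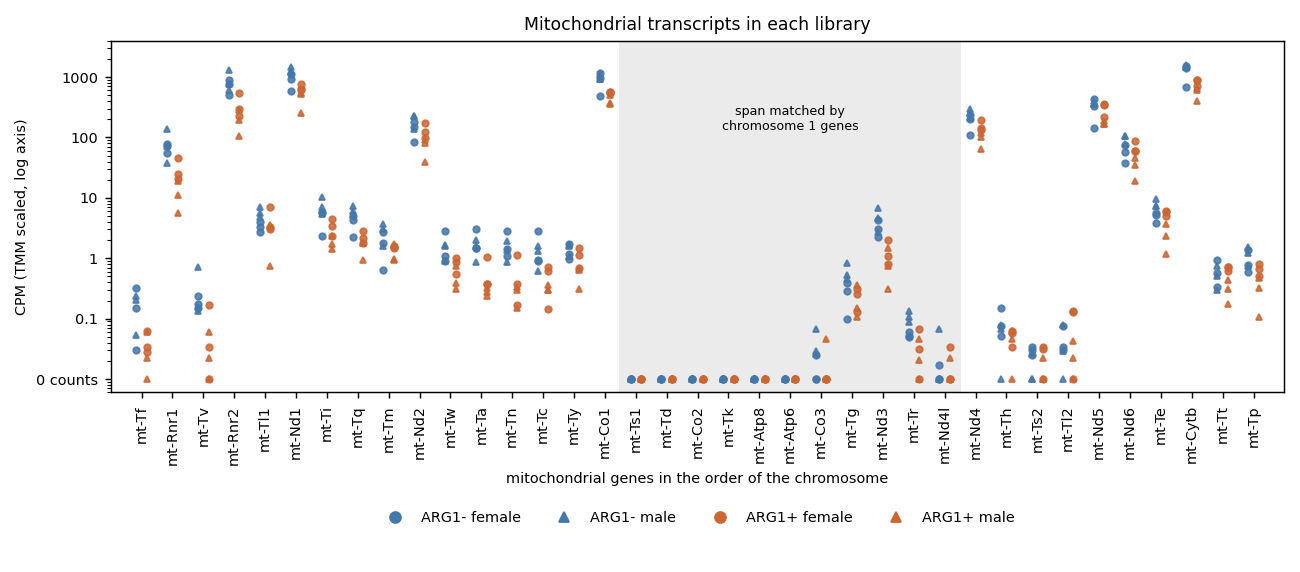
CPM (TMM scaled, log axis, libraries without a count placed at the lowest mark) of the 37 mitochondrial genes in chromosome order, 1 point per library, circles for female and triangles for male libraries. Of the 11 genes in the shaded stretch, which the chromosome 1 genes match, mt-Nd3 had 0.315 to 6.73 CPM and the other 10 lay below 1 CPM in every library, while mt-Nd1 and mt-Cytb, on either side of it, had 255.7 to 1482 and 398.8 to 1564.5 CPM. CPM are not corrected here for gene length or for positions that match a copy.

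Within the countable genes, the order of levels was steep. Per 1000 read positions free of copies, the mean of the ARG1- libraries was 1262.5 CPM for mt-Cytb, the complex III subunit, 1249.2 CPM for mt-Nd1 and 1054.3 CPM for mt-Co1. These neighbours differed by less than their spread over libraries. mt-Nd4 followed at 436.6 CPM, and mt-Nd5, mt-Nd2 and mt-Nd6, also of complex I, lay at 199.3, 186.8 and 177.7 CPM. mt-Nd6 is the only mRNA on the light strand, and the kit did not mark strand, so reads antisense to it cannot be told apart from its own. On the same scale mt-Rnr2, the large rRNA, was at 538.8 CPM and mt-Rnr1, the small one, at 85.4 CPM. How far the kit captured each kind of RNA was not tested. These counts therefore do not rank the rRNAs in the cells, either against the mRNAs or against each other. In ARG1+ libraries the 3 leading mRNAs were again mt-Cytb (643.4 CPM), mt-Nd1 (628.7 CPM) and mt-Co1 (547.2 CPM). This scale assumes that reads matching a copy were not counted, which was not tested. Per 1000 bases of gene length, mt-Co1 was at 604.6 CPM in ARG1- libraries, against 1186.4 for mt-Cytb. mt-Nd4 was then at 159.4 CPM, below mt-Nd5 (186.5) and mt-Nd2 (163.2). The places of mt-Co1 and mt-Nd4 in the order thus depend on this assumption.

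The mitochondrial genome gave a small share of each library, and a smaller one in ARG1+ microglia. Its mRNAs took 0.194%, 0.409% and 0.437% of all counts in ARG1- females (1, 2 and 13) and 0.466%, 0.491% and 0.46% in ARG1- males (5, 6 and 14). In ARG1+ libraries they took 0.282%, 0.246% and 0.329% in females (7, 8 and 15) and 0.22%, 0.135% and 0.189% in males (11, 12 and 16). Every ARG1+ library lay below 5 of the 6 ARG1- libraries, and the exception was ARG1- female 1, which lay below 4 of the 6 ARG1+ libraries. The means were 0.41% ± 0.109 (SD, n = 6) and 0.233% ± 0.0685 (SD, n = 6), a difference of -0.176 percentage points. No p-value is given for this sum over the genes described.

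Mitochondrial rRNAs took 0.0508% to 0.14% of the counts in ARG1- and 0.0116% to 0.0647% in ARG1+ libraries, and the tRNAs 0.00173% to 0.00471% and 0.000758% to 0.0028%. In bulk libraries, fewer mitochondria per cell, fewer cells with many of them, and less RNA from each genome cannot be told apart.

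**Figure D2:**
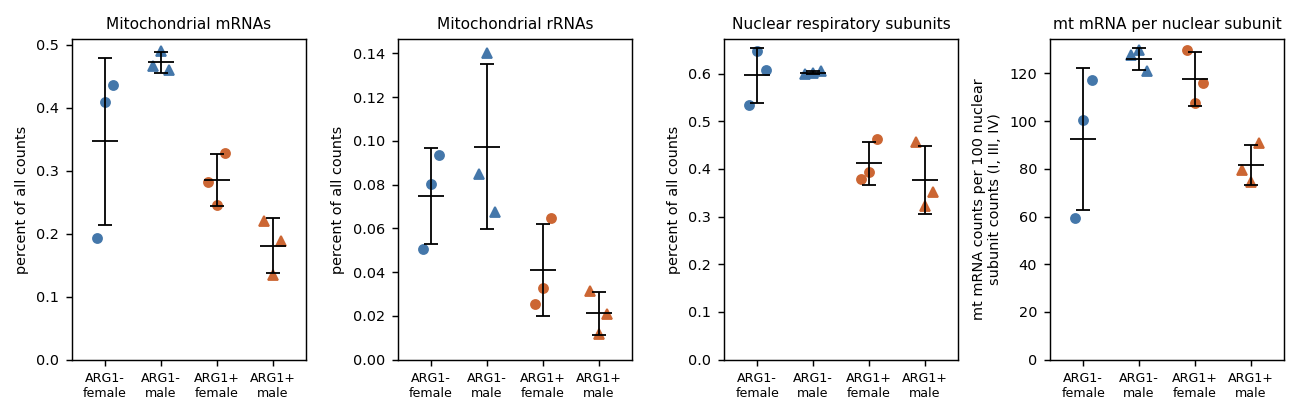
Share of all counts in mitochondrial mRNAs, mitochondrial rRNAs and the 72 nuclear subunits of complexes I, III, IV and V, and mitochondrial mRNA counts per 100 counts of the 56 of them in complexes I, III and IV, by group. Points are libraries and bars the mean ± SD (n = 3); ARG1- female 1 stands low in the first and last panels.

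Gene by gene, ARG1+ libraries were compared with ARG1- libraries with sex as a second term in edgeR (quasi-likelihood test), and p-values were adjusted over all 16908 genes by the Benjamini-Hochberg method. Of the 23 mitochondrial genes tested, 9 fell in ARG1+ microglia and 0 rose. Among all genes tested, 15.9% were called, 9.42% as lower and 6.44% as higher. The fitted log2 fold change was below 0 for all 23, against 46.4% of all genes, and their median was -0.99, against 0.06 for all genes. The 9 were both rRNAs, 4 mRNAs and 3 tRNAs. These genes are cut from shared precursors, so that they are not independent of each other.

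The rRNAs fell furthest among the well-counted genes. mt-Rnr2 (chrM:1094-2675) had 506.5 to 1307.5 CPM in ARG1- libraries (median 773.5) and 107.6 to 554.5 CPM in ARG1+ libraries (median 254). The populations overlapped only through ARG1+ female 15, which lay above ARG1- female 1. The log2 fold change was -1.61 ± 0.34 (SE), with an adjusted p of 0.00825. mt-Rnr1 (chrM:70-1024) had 38.2 to 138.8 CPM (median 71.7) against 5.59 to 45.4 CPM (median 19.5). ARG1+ female 15 was again the library that reached into the ARG1- range, above ARG1- male 14. The log2 fold change was -1.99 ± 0.44 (SE, adjusted p = 0.01).

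Of the complex I mRNAs, mt-Nd1 and mt-Nd3 fell. mt-Nd1 (chrM:2751-3707) had 581.6 to 1482 CPM in ARG1- libraries (median 1176.2) and 255.7 to 770.6 CPM in ARG1+ libraries (median 573.9). Only ARG1- female 1 lay within the ARG1+ range, and the log2 fold change was -0.99 ± 0.26 (SE, adjusted p = 0.0239). mt-Nd3, of which few read positions are free of its copy, had 2.27 to 6.73 CPM against 0.315 to 1.99 CPM, with medians of 3.69 and 0.964. It was the 1 tested member whose populations did not overlap, a pattern that 6.56% of all genes showed in this direction, and its log2 fold change was -1.88 ± 0.49 (SE, adjusted p = 0.0222). The other complex I mRNAs did not pass: the log2 fold change was -0.82 for mt-Nd4 (adjusted p = 0.0595), -0.79 for mt-Nd2 (0.133), -0.63 for mt-Nd6 (0.277) and -0.54 for mt-Nd5 (0.218).

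mt-Cytb, the sole mitochondrial subunit of complex III, and mt-Co1, the catalytic subunit of complex IV, both fell. mt-Cytb (chrM:14145-15288) had 694.7 to 1564.5 CPM in ARG1- libraries (median 1471.6) and 398.8 to 902.8 CPM in ARG1+ libraries (median 673.7). The lowest ARG1- value was that of female 1, and the other 5 ARG1- libraries lay at 1440.2 CPM or above. The log2 fold change was -0.99 ± 0.22 (SE, adjusted p = 0.0108). mt-Co1 (chrM:5328-6872) had 489.2 to 1159.3 CPM (median 946.2) against 364.1 to 562.1 CPM (median 527.5). Here too ARG1- female 1 was the only ARG1- library within the ARG1+ range, and its difference of -0.96 ± 0.20 (log2, SE) had the smallest adjusted p of the mitochondrial genes, 0.00692.

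Most tRNAs are shorter than a read, and 18 of the 22 have no position at which 75 bases touch that gene alone. Of these 18, 15 still had counts, all of them low. How reads that touch more than 1 gene were counted, and whether shorter or clipped reads were, is not given in the sources used here, and its part in these counts was not tested. The 3 tRNAs that fell lie on the light strand, between mt-Nd1 and mt-Co1. Since the kit did not mark strand, reads antisense to them cannot be told apart from their own, and no strand pattern is read from them. They are shown as transcribed with the anticodon in capitals, next to mt-Tl1 and mt-Te, 2 of the better counted tRNAs that did not pass.
mt-Tq (glutamine), chrM:3772-3842, minus strand: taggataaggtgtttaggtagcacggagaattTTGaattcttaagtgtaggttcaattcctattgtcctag
mt-Ta (alanine), chrM:5018-5086, minus strand: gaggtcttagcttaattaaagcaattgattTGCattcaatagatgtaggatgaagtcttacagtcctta
mt-Tn (asparagine), chrM:5089-5159, minus strand: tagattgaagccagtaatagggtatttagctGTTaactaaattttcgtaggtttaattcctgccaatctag
mt-Tl1 (leucine), chrM:2676-2750, plus strand: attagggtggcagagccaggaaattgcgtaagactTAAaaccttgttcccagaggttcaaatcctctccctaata
mt-Te (glutamate), chrM:14071-14139, minus strand: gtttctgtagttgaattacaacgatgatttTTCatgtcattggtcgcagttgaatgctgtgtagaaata

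mt-Tq had 2.25 to 7.43 CPM in ARG1- and 0.946 to 2.85 CPM in ARG1+ libraries, a log2 difference of -1.40 ± 0.37 (SE) with an adjusted p of 0.0251. mt-Ta had 0.859 to 3.07 CPM against 0.237 to 1.05 CPM (-2.07 ± 0.50, adjusted p = 0.0152). mt-Tn had 0.859 to 2.8 CPM against 0.148 to 1.14 CPM (-2.02 ± 0.58, adjusted p = 0.034). The populations overlapped for all 3, and for mt-Ta and mt-Tn the ARG1+ maximum was female 7, with the other 5 ARG1+ libraries at a median of 0.318 and 0.294 CPM. mt-Tc, their neighbour for cysteine, gave -1.77 (adjusted p = 0.0512) and mt-Ti, for isoleucine, -1.24 (0.0611). mt-Te gave -0.77 (0.258), mt-Tl1 -0.38 (0.644) and mt-Tt, for threonine, -0.28 (0.777), which was the smallest difference of the 23.

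Leaving out 1 library at a time, mt-Rnr1, mt-Rnr2, mt-Ta, mt-Co1 and mt-Cytb passed in all 12 fits, mt-Nd1 and mt-Nd3 in 8, mt-Tq in 7 and mt-Tn in 3. Without ARG1- female 2, or without ARG1+ male 16, 5 of the 23 genes passed, where calls over all genes went from 2682 to 1960 and 1803. Without ARG1- female 1, 13 passed (2669 of all genes), with mt-Nd2, mt-Nd4, mt-Nd5 and mt-Ti added. mt-Nd1 missed the limit without ARG1- female 2 (adjusted p = 0.0554) or ARG1+ female 8 (0.0511), male 11 (0.056) or male 16 (0.0741). mt-Nd3 missed it without ARG1- female 2 (0.0533) or ARG1+ female 7 (0.0511), female 8 (0.0563) or male 16 (0.0698). mt-Tq missed it without ARG1- female 2 (0.0553) or ARG1+ female 7 (0.0567) or any of the ARG1+ males (0.0581 to 0.0745). mt-Tn passed only in the fits without ARG1- female 1, ARG1- male 14 or ARG1+ female 7. All 23 stayed below 0 in all 12 fits. Without the 4 libraries numbered 13 to 16, 1 from each group, 2 genes passed, where calls over all genes went to 638, and the median of the 23 was -0.94.

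**Figure D3:**
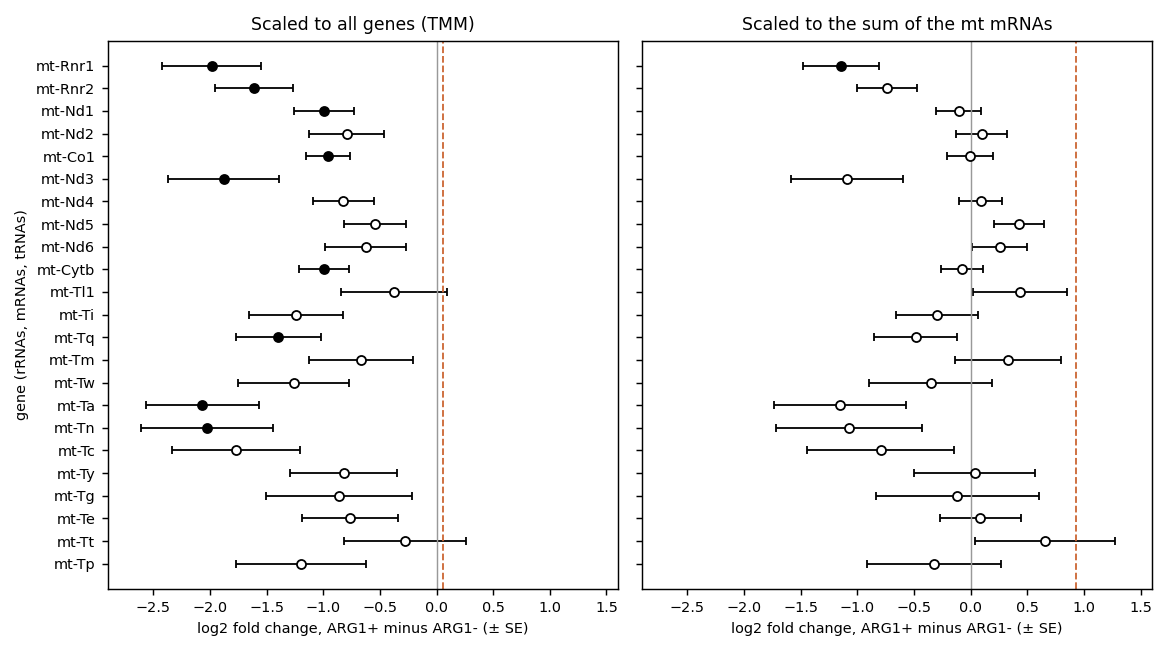
Log2 fold change of the 23 tested mitochondrial genes, ARG1+ minus ARG1-, with SE bars, after scaling to all genes (left) and to the summed mitochondrial mRNAs (right). Filled points pass an adjusted p of 0.05 (9 on the left, mt-Rnr1 alone on the right), and dashed lines mark the median of all genes tested, 0.06 and 0.93.

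To ask which of these RNAs moved apart from the rest, the counts were also scaled to the sum of the mitochondrial mRNAs in each library. On this scale the median of all genes tested was 0.93, so values are read here only between mitochondrial genes, and 24.1% of all genes were called but 0.118% as lower. mt-Rnr1 alone of the 23 passed, at -1.15 ± 0.33 (log2, SE, adjusted p = 0.0282), and mt-Rnr2 gave -0.74 ± 0.26 (0.0537). mt-Nd3 gave -1.09 ± 0.49 (0.107) and mt-Nd5 0.42 ± 0.22 (0.149), while mt-Co1, mt-Cytb, mt-Nd1, mt-Nd2 and mt-Nd4 lay between -0.11 and 0.10. For mt-Cytb, mt-Nd1 and mt-Co1 a value near 0 is set by the scaling, since these 3 make up most of the sum. The call of mt-Rnr1 was lost without any 1 of ARG1+ female 7 (adjusted p = 0.0508), ARG1+ female 8 (0.0537), ARG1- male 5 (0.061), ARG1- male 6 (0.074), ARG1+ male 12 (0.0613) or ARG1+ male 16 (0.066). In counts, the rRNAs came to 26.2, 19.6 and 21.4 per 100 mitochondrial mRNA counts in ARG1- females and to 18.2, 28.4 and 14.7 in ARG1- males. They came to 8.96, 13.4 and 19.7 in ARG1+ females and to 14.2, 8.58 and 11 in ARG1+ males. The tRNAs summed to 0.706 to 0.959 per 100 mRNA counts in ARG1- and 0.563 to 0.876 in ARG1+ libraries. Single tRNAs were fitted on both sides of 0 on this scale, and 0 of the 13 passed. mt-Ta gave -1.15 ± 0.58 (SE, adjusted p = 0.141), mt-Tn -1.07 ± 0.64 (0.207) and mt-Tc -0.80 ± 0.65 (0.342), whereas mt-Tt gave 0.66 ± 0.62 (0.409) and mt-Tl1 0.43 ± 0.42 (0.42).

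The make-up of the counted mRNA pool is given as a description, to be read for 1 gene between populations and not between genes, since mRNAs with copies are missing from it or counted in part. mt-Cytb held 32.4% ± 2.13 of the mitochondrial mRNA counts in ARG1- and 30.7% ± 1.22 in ARG1+ libraries (SD, n = 6 each). mt-Nd1 held 26.2% ± 3.0 and 24.3% ± 2.77, and mt-Nd5 7.99% ± 1.12 and 10.7% ± 2.11. The share of mt-Co1, of which 886 of 1469 read positions are free of copies, was 22.3% ± 2.11 and 22.2% ± 3.73.

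The sexes were compared because the study asked how ARG1+ microglia differ between females and males. Within ARG1- microglia 0 of the 23 genes passed between females and males, as did 0 within ARG1+ microglia, where 0.0946% and 0.0355% of all genes were called (edgeR). At an unadjusted p below 0.05 there were 1 of 23 in ARG1- microglia, where 10% of all genes were, and 7 of 23 in ARG1+ microglia, where 3.12% were. DESeq2's Wald test called 0 in each, where it called 397 of all genes in ARG1- and 38 in ARG1+ microglia. The fitted female-minus-male log2 difference was above 0 for all 23 genes in ARG1+ microglia (median 0.81) and below 0 for 18 of 23 in ARG1- microglia (median -0.35).

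ARG1+ and ARG1- libraries were then compared within each sex, with the spread shared by the 4 groups, a fit chosen after seeing the data. In the fits planned on the libraries of 1 sex alone, 0 of the mitochondrial genes passed in females and 0 in males, where 986 and 1 of all genes were called. With the shared spread, in males 11 of the 23 genes fell and all 23 were fitted below 0, with a median log2 fold change of -1.54, where 5.13% of all genes were called. In females 0 of 23 passed (4 at an unadjusted p below 0.05), 18 were fitted below 0 and the median was -0.42, where 6.76% of all genes were called. All 3 ARG1+ male libraries lay below all 3 ARG1- male libraries for 21 of the 23 genes and above them for 0, where 29.0% of all genes in males had no overlap in either direction. In females they lay below for 4 of 23 and above for 0, where 32.0% of all genes had no overlap. In ARG1- female 1, 11 of the 23 genes lay below all 3 ARG1+ female libraries, namely the mRNAs mt-Nd1, mt-Nd2, mt-Nd4, mt-Nd5, mt-Nd6, mt-Co1 and mt-Cytb and the tRNAs mt-Tl1, mt-Tm, mt-Te and mt-Tt. The same held for 2 genes in ARG1- female 2 and 1 in ARG1- female 13. ARG1- female 1 also had the highest sum of the microglia markers of the 12 libraries (80109.5 CPM, the next 62921.5), the highest of the immediate early genes (405.7 CPM, the next 375 in ARG1+ female 7, and the next ARG1- library 283.3) and the lowest of the nuclear-retained RNAs (476.1 CPM, the next 751.6). The part of these in its mitochondrial values was not tested.

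mt-Nd6, the light-strand complex I mRNA, had 37.6, 57.5 and 75 CPM in ARG1- females (1, 2 and 13) and 59.6, 60.2 and 87.5 CPM in ARG1+ females (7, 8 and 15). In ARG1- males (5, 6 and 14) it had 103.9, 107.2 and 78.4 CPM and in ARG1+ males (11, 12 and 16) 46.4, 18.9 and 34.4 CPM. The male groups did not overlap and the female groups did, and the log2 fold change was -1.54 ± 0.34 in males (SE, adjusted p = 0.0316) and 0.29 ± 0.33 in females (0.684). mt-Rnr2 gave -2.20 ± 0.43 in males (0.0242) and -1.01 ± 0.42 in females (0.173), and mt-Cytb -1.44 ± 0.27 (0.0213) and -0.55 ± 0.26 (0.243).

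Tested directly, the difference of the ARG1 effect between females and males passed for 0 of the 23 genes in edgeR (9 at an unadjusted p below 0.05, where 9.32% of all genes were), and 0% of all genes passed. The fitted difference was above 0 for all 23, with a median of 1.19. It was largest for mt-Te, at 1.99 ± 0.60 (SE, adjusted p = 0.456), and mt-Nd6, at 1.82 ± 0.47 (0.433). These were the 2 genes that DESeq2's Wald test called, and that test called 287 of all genes. Without ARG1- female 1 the median was 0.99 and again 0 passed. A difference between the sexes in this fall was thus not shown by the edgeR test.

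**Figure D4:**
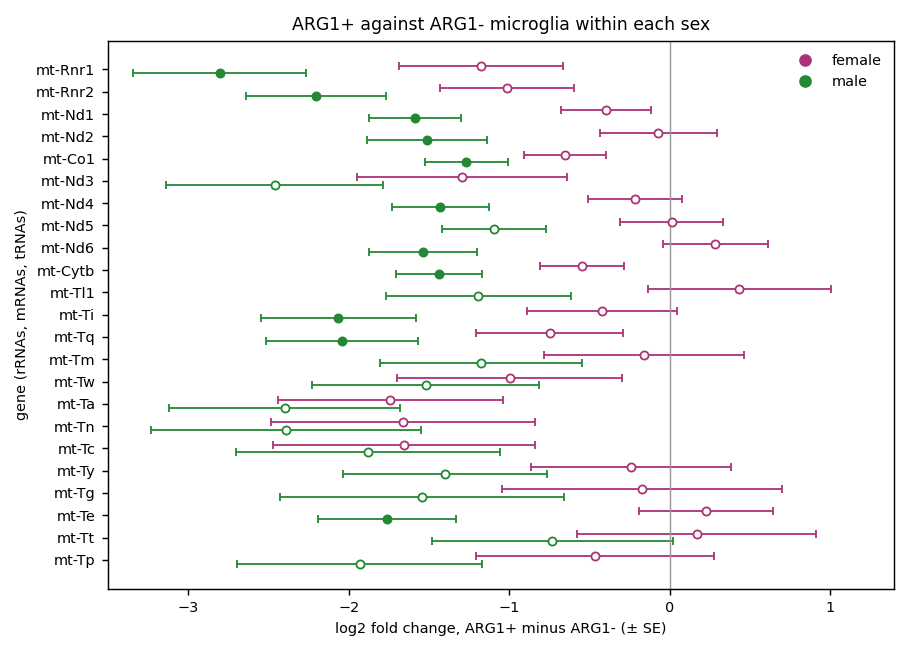
Log2 fold change of the 23 tested mitochondrial genes, ARG1+ minus ARG1-, within females and within males, with SE bars and the spread shared by the 4 groups, a fit chosen after seeing the data. Filled points pass an adjusted p of 0.05, 11 in males and 0 in females, and the difference between the sexes passed for 0 genes in edgeR.

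The proteins that copy, transcribe and process mitochondrial DNA and RNA are encoded in the nucleus. Of 20 genes for its transcription and replication, 4 fell and 1 rose in ARG1+ microglia, with a median log2 fold change of -0.01. For this and the lists that follow, 9.42% of all genes were called as lower and 6.44% as higher, and the median of all genes was 0.06. Tfam, which packs mitochondrial DNA and starts its transcription, fell from 23.4 to 52.9 CPM in ARG1- libraries (median 34.6) to 14.2 to 24.7 CPM (median 19.4), a log2 difference of -0.89 ± 0.21 (SE) with an adjusted p of 0.0154. The populations overlapped slightly. Tefm, an elongation factor, gave -0.97 ± 0.24 (0.0191) and Tfb1m, which methylates the small rRNA, -1.05 ± 0.31 (0.0359), and for Tfb1m all ARG1+ libraries lay below all ARG1- libraries. Polg2, the accessory subunit of the DNA polymerase, fell too (-0.64, 0.0395), and Dna2, a nuclease and helicase, rose (1.17, 0.0414). Polrmt, the RNA polymerase itself, had 27.1 to 63 CPM in ARG1- and 36.4 to 79.5 CPM in ARG1+ libraries and did not pass (0.33 ± 0.22, adjusted p = 0.366). Nor did Tfb2m, its other partner in transcription, at -0.007 ± 0.35 (adjusted p = 0.993).

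Of 34 genes for mitochondrial RNA processing and stability, 7 fell and 1 rose, with a median of -0.21. Hsd17b10, a subunit of the RNase P that cuts the 5′ ends of the tRNAs, fell with no overlap between the populations, from a median of 40.4 to 18.9 CPM (-1.16 ± 0.17 SE, adjusted p = 0.00117). Slirp, a partner of LRPPRC in keeping mRNAs stable, gave -0.77 ± 0.16 (0.00837) and Ptcd2 -0.72 ± 0.16 (0.01). Fastkd2, which binds the large rRNA, gave -0.86 ± 0.20 (0.0131), and Mrm2, which methylates it, -0.77 ± 0.23 (0.0424). Trit1 and Trnt1, which modify tRNAs and add their CCA end, fell as well (-0.62 and -0.51). Lrpprc did not pass, at 0.15 ± 0.20 (adjusted p = 0.684), and Fastk, a regulator of mt-Nd6 mRNA, rose by 0.67 ± 0.16 (0.0141).

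Of 12 regulators of mitochondrial biogenesis, 10 could be tested, 0 fell and 1 rose, with a median of 0.32. This was Pparg, a nuclear receptor, at 0 counts in all ARG1- libraries and at 0.568 to 3.07 CPM in ARG1+ libraries. Pprc1 (0.57, adjusted p = 0.0648) and Ppard (1.16, 0.114) did not pass. Ppargc1a, the coactivator PGC-1 alpha, had counts in 2 of the 12 libraries, both ARG1+, and was not tested.

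The nuclear-encoded subunits of the same respiratory complexes fell as well. Of the 72 tested, 64 fell and 0 rose. In 50 of them all ARG1+ libraries lay below all ARG1- libraries, a pattern that 6.56% of all genes showed in this direction. By complex, 34 of 36 fell in complex I (median log2 fold change -0.97), 7 of 9 in complex III (-0.98), 9 of 11 in complex IV (-0.80) and 14 of 16 in complex V (-0.70). The example with the smallest p in each was Ndufs8 in complex I, from a median of 148.9 to 77.2 CPM (-0.98 ± 0.13 SE, adjusted p = 0.000741), and Uqcrh in complex III, from 47.1 to 17.6 CPM (-1.31 ± 0.19, 0.00121). In complex IV it was Ndufa4, from 70.1 to 25.2 CPM (-1.40 ± 0.19, 0.000869), and in complex V Atp5c1, from 238 to 131.1 CPM (-0.84 ± 0.11, 0.000733). Ndufv2 and Ndufb9, Uqcrc1 and Uqcrq, Cox4i1 and Cox7a2, and Atp5a1 and Atp5f1 came next in each complex, with log2 fold changes between -1.19 and -0.61 and no overlap between the populations. Over the 7 nuclear lists together, 75 of 136 genes tested fell and 3 rose. These lists were drawn up with earlier results of the same libraries known.

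For complex V both mitochondrial genes were at 0 counts, so the nuclear and mitochondrial subunits can be set side by side only for complexes I, III and IV. Per 100 counts of the 56 nuclear subunits of these 3 complexes, the counted mitochondrial mRNAs came to 59.5, 100.6 and 117.3 in ARG1- females, 127.6, 129.7 and 120.9 in ARG1- males, 129.9, 107.5 and 115.8 in ARG1+ females and 79.3, 74.5 and 90.7 in ARG1+ males. The lowest value was that of ARG1- female 1, and the ARG1+ males lay below all libraries but that one. ARG1- female 1 had 0.534% of its counts in the 72 nuclear subunits. This was below the 0.599% to 0.648% of the other ARG1- libraries and above the 0.322% to 0.463% of ARG1+ libraries. The low level of ARG1- female 1 was thus seen in the mitochondrial mRNAs and not to the same degree in the nuclear subunits.

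Library size was also set to the sum of the 72 nuclear subunits, complex V included. The median of all genes was then 0.77, and 43.8% of all genes were called, counting both directions. The share called as lower alone is not given here, so the calls of lower genes that follow have no matching share beside them. On this scale 4 mitochondrial genes were called, all lower: mt-Rnr1 (-1.32 ± 0.40 SE, adjusted p = 0.0184), mt-Rnr2 (-0.94 ± 0.30, 0.0238), mt-Nd3 (-1.22 ± 0.45, 0.0447) and mt-Ta (-1.35 ± 0.50, 0.0447). mt-Co1, mt-Cytb and mt-Nd1 lay between -0.30 and -0.25 and did not pass, and mt-Nd5 and mt-Nd6 changed sign, to 0.18 and 0.05.

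**Figure D5:**
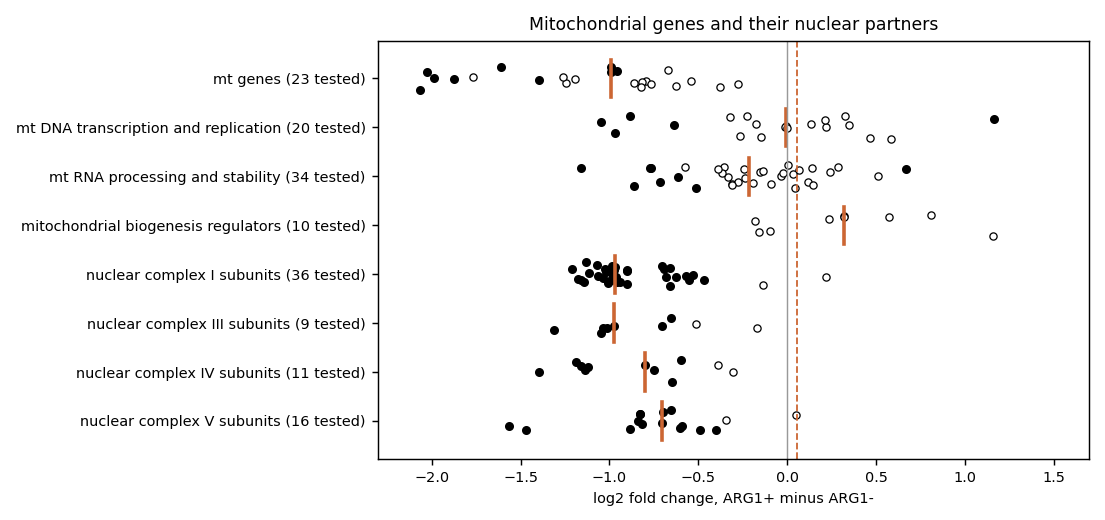
Log2 fold change, ARG1+ minus ARG1-, of the tested mitochondrial genes and of 7 lists of nuclear genes, 1 point per gene, filled at an adjusted p below 0.05. Solid bars are list medians, the dashed line is the median of all genes tested, 0.06, and Pparg, whose ARG1- libraries were all at 0, lies outside the axis; the mitochondrial genes (-0.99) and the nuclear subunits of complexes I (-0.97) and III (-0.98) sit far to the left of the 3 regulatory lists.

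Other measures moved with ARG1 status as well, and their part in the difference of the mitochondrial genes was not tested. Summed CPM of the astrocyte markers was 162.9 to 219.5 in ARG1- and 128.1 to 147.3 in ARG1+ libraries (1 of 6 fell), and of the oligodendrocyte lineage markers 262.9 to 382.9 and 171.2 to 261.3 (1 of 8 fell). Most of each sum came from the gene that fell. Slc1a3 had means of 175.6 and 130.7 CPM, of mean sums of 183.8 and 138.6. Cnp had 194.2 and 132.8 CPM, of 323.1 and 209.6. Log2 fold changes ran from -1.57 to 3.05 over the astrocyte list and from -4.49 to 0.32 over the oligodendrocyte list. Neuron markers summed to 4.26 to 16.8 and 2.32 to 9.09 CPM (0 of 6 tested passed). Erythroid markers summed to 3.69 to 17.7 and 0 to 3.39 CPM (1 of 5 tested fell), monocyte markers to 5.12 to 14.1 and 1.89 to 6.7 CPM (1 of 3 fell), and neutrophil markers to at most 3.31 and 0.0593 CPM, with 3 and 4 of 6 at 0. Border macrophage (106.4 to 141.2 and 111.5 to 237.4 CPM) and endothelial markers (29.8 to 58.1 and 44.9 to 83.6 CPM) gave 0 calls. Among the microglia markers, P2ry12, Tmem119, Siglech and Fcrls fell and Sall1 rose. Of RNAs kept in the nucleus, Neat1 rose (1.89 to 12.6 against 34.9 to 56.7 CPM, log2 fold change 2.58 ± 0.40 SE, adjusted p = 0.00166), and Malat1 had 468.4 to 1346.1 against 733.9 to 2524.3 CPM (0.92 ± 0.31, 0.0661). Of the 7 immediate early genes tested, Egr1 and Atf3 rose.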

How the data were processed

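RNA from sorted microglia was amplified with SMART-Seq v4, made into Nextera XT libraries and sequenced as single-end reads of 75 bases. Per the labels and methods, the authors used bcl2fastq 2.20.0, STAR 2.6.1d on GRCm38 and featureCounts 1.5.1, and deposited raw counts per gene without normalization (DESeq2 1.28.1 served their own comparisons). Settings for strand, multiply mapping reads and overlapping genes are not given in the sources used here. Of 55487 identifiers, 55141 matched GENCODE M21. From these counts, edgeR 4.0.16 in R 4.3.3 was run with filterByExpr on the 4 groups, TMM scaling, glmQLFit and glmQLFTest, with sex as a term or on the 4 group means, and adjusted p below 0.05. Standard errors were derived from each log2 fold change and F value. CPM are TMM scaled. Scaled fits used the mitochondrial mRNA sum, or the sum of 72 nuclear subunits, as library size. Nuclear copies were searched with BLAST 2.17.0 among annotated transcripts. DESeq2 1.42.0 was an alternative. Scripts were tested on simulated data. Replicates differed by far more than sampling noise (chi-square of 44.4 to 135 per degree of freedom). The labels name separate samples, and p-values measure the spread between them. Genes named are all 37 mitochondrial genes, Polrmt, Tfam, Lrpprc, Ppargc1a, the 3 with the smallest p of each nuclear list and the 3 best counted copies. Other list genes named were picked because they passed, apart from Tfb2m, which is given as a partner of Polrmt and Tfam. The rule that took the members by chromosome used no measured value, but it and the lists were set with earlier results of these data known.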

Additional observations from a re-analysis of the deposited data

Results flagged for a closer look

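In 62 sets of 6 libraries (the CPM of each of the 23 tested genes, and 8 sums and totals, in ARG1- and in ARG1+ microglia), the highest or lowest library was compared with its nearest neighbour by Dixon's test. In 6 of them its gap, divided by the range, exceeded Dixon's critical value, where chance gives about 1 in 20, or 3.1. ARG1- female 1 was low in 4: mt-Cytb (694.7 CPM, median of the other 5 libraries 1487.3), mt-Co1 (489.2 CPM against 972.3), mt-Nd5 (142.7 CPM against 358.6) and the mitochondrial mRNA share (0.194% against 0.46%). ARG1+ female 7 was high in the other 2, mt-Ta (1.05 CPM against 0.318) and mt-Tn (1.14 CPM against 0.294), which are neighbouring tRNAs.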

How the results depend on the processing

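No paired analysis was possible because the groups share no replicate numbers, although both populations were sorted from the same pools. Of the 23 mitochondrial genes, 9 were called as lower in ARG1+ microglia. This count was 5 with no filter on low counts (2097 of all genes called, against 2682 in the main fit). It was 14 with GC content and length trends removed (2324 of all genes). In female libraries alone it was 0 (986 of all genes) and in male libraries alone 0 (1 of all genes). It was 5 to 13 leaving out 1 library. Chosen after seeing the data, the nuclear subunit sum as library size gave 4, leaving out libraries 13 to 16 gave 2 (638 of all genes, against 2682 with all libraries), and fits within sex with a shared spread gave 0 in females and 11 in males. The other planned settings gave 9 to 13, with 13 from DESeq2's Wald test, where 4105 of all genes were called. The 78 nuclear partner genes called became 25 in females alone, 0 in males alone and 29 without libraries 13 to 16, and stayed at 58 to 83 elsewhere. Scaled to the mitochondrial mRNA sum, 1 gene was called (4077 of all genes), 4 with DESeq2's Wald test (7211 of all genes) and 0 to 2 leaving out 1 library. The difference of the sex effects gave 0, and 2 with DESeq2's Wald test (287 of all genes). The share difference of -0.176 points lay between -0.219 (without ARG1- female 1) and -0.156 (without ARG1+ male 12) under the alternatives tried. By sex, the mean share was 0.347% in ARG1- and 0.285% in ARG1+ females, and 0.472% and 0.181% in males. Fold changes turned positive, without passing, in female libraries alone for mt-Tl1 (0.46), mt-Nd6 (0.30), mt-Te (0.24), mt-Tt (0.18) and mt-Nd5 (0.03), with the nuclear subunit sum for mt-Tt (0.43), mt-Tl1 (0.29), mt-Nd5 (0.18), mt-Tm (0.06) and mt-Nd6 (0.05), and without libraries 13 to 16 for mt-Tt (0.06). The cause was not tested for any of these. Depth limits the tRNAs most: of the 22, 9 had too few counts to be tested.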
